A study of Mus musculus with 6 samples.

Results

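The mitochondrial genome is a small circular DNA carried in many copies by each cell, and its genes were measured here in cells of the dorsal root ganglion (DRG), which houses the cell bodies of sensory neurons. The genes were chosen by name, as every gene whose symbol starts with mt-, which gave 37 of the 54309 genes listed. They fall into 13 messenger RNA (mRNA) genes, 2 ribosomal RNA (rRNA) genes and 22 transfer RNA (tRNA) genes, each with 1 listed transcript. The ganglia came from lumbar levels 4 to 6 of male C57bl/6 mice aged 8 to 10 weeks, with no other allele named in the labels. Both groups had both sciatic nerves injected with adeno-associated virus (AAV), used as a vector to deliver genes, and 4 weeks later all animals had the dorsal columns of the spinal cord cut. The 3 control libraries (AAV-GFP) are from mice given a vector for green fluorescent protein, and the other 3 (AAV-Leptin-GFP) from mice given a vector for leptin and green fluorescent protein. Leptin is a hormone of fat tissue that acts through its receptor on energy balance. RNA was taken 24 hours after the cut from dissociated cells after a gradient of albumin had enriched them for neurons. The labels give neither the vector's promoter nor whether a library is 1 animal or a pool, so the p-values speak only of spread among the libraries at hand, some of which may be technical.

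Both strands of mitochondrial DNA are copied as long precursor RNAs, which are cut mostly at the tRNAs that lie between the other genes. The mRNAs encode subunits of respiratory complexes I, III, IV and V, the machinery that passes electrons to oxygen and makes ATP, and all other subunits come from the nucleus. The mitochondrial poly(A) polymerase then adds a tail to most of these mRNAs, and in some the tail also supplies the missing letters of the stop codon. In sensory neurons, whose axons are very long, respiration provides much of the ATP for ion pumping and transport.

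The libraries were made with a kit that captures polyadenylated RNA, so the 3′ ends of the mRNAs are shown first. Sequences are those of the GENCODE M21 annotation of build GRCm38, which matched all 37 genes by identifier. In 3 of the 13 mRNA genes (mt-Co3, mt-Nd4 and mt-Cytb) the annotated RNA stops after the T of the stop codon, while the other 10 carry a whole stop codon as annotated. In mt-Nd1 and mt-Nd2 the end of that codon lies within the tRNA gene that follows on the same strand. The 3 incomplete ends are shown with that of mt-Co2, which is complete, and that of mt-Nd6, the only mRNA gene on the reverse strand, with the stop codon or its first letter in capitals.
mt-Co3, chrM:9361-9390, forward strand: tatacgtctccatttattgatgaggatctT
mt-Nd4, chrM:11515-11544, forward strand: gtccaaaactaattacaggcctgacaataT
mt-Cytb, chrM:15259-15288, forward strand: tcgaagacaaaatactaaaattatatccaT
mt-Co2, chrM:7667-7696, forward strand: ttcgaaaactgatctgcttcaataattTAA
mt-Nd6, chrM:13552-13581, reverse strand: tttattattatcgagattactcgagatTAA

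Some members share bases with each other, which bears on how reads can be divided. The genes mt-Atp8 and mt-Atp6 are read from one RNA and overlap by 43 bases, printed here with the start codon of mt-Atp6 and the stop codon of mt-Atp8 in capitals. The genes mt-Nd4l and mt-Nd4 are likewise read from one RNA and overlap by 7 bases.
mt-Atp8 and mt-Atp6, chrM:7927-7969, forward strand: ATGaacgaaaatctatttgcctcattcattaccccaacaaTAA

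Other members share part or nearly all of their sequence with a copy in the nuclear genome. Such copies arose by insertion of mitochondrial DNA into chromosomes. On chromosome 1 of GRCm38, a block of 4663 bases on the reverse strand (24611535 to 24616197) holds 7 genes annotated as unprocessed pseudogenes. Over the bases that align, these are 99% or more identical to mt-Co1, mt-Co2, mt-Atp6, mt-Co3, mt-Nd3, mt-Nd4l or mt-Nd4. The aligned part is 483 of the 1545 bases of mt-Co1, 876 of the 1378 bases of mt-Nd4 and nearly all of the others. In Gm28437 all 783 bases aligned to mt-Co3 are the same, as the first 60 of each show (start codon in capitals).
mt-Co3, chrM:8607-8666, forward strand: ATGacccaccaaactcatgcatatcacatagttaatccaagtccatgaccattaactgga
Gm28437, chr1:24613912-24613971, reverse strand: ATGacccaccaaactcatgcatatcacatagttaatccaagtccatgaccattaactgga
In Gm28438 the 345 aligned bases differ from mt-Nd3 by 1 substitution, T3C (the mt-Nd3 base, its position from 1 at the 5′ end of mt-Nd3, then the copy's base), in capitals here.
mt-Nd3, chrM:9459-9499, forward strand: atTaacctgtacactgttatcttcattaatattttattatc
Gm28438, chr1:24613079-24613119, reverse strand: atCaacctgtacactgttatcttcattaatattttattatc

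The deposited unit is TPM, the abundance of a transcript corrected for its length and scaled to a library total of 1000000. Read depth is unknown, because TPM keeps none. The gene the vector carries, Lep, had 0.751, 0.547 and 3.56 TPM in AAV-Leptin-GFP replicates 1 to 3. All 3 control libraries listed it at 0, and its overall mean was below the filter of 1 TPM. Summed TPM of 15 sensory neuron markers was 28478 to 29756 in AAV-GFP and 27307 to 27911 in AAV-Leptin-GFP. Marker sums of satellite glia were 8865 to 10081 and 7937 to 8788 TPM, and those of Schwann cells 1012 to 1056 and 892 to 977 TPM, in the same order, with no marker of these 3 lists at 0 throughout. AAV-Leptin-GFP replicate 3 stood apart in erythroid markers (9 genes, haemoglobins among them), whose sum was 1761 TPM there and 205 to 410 TPM in the other 5 libraries. The same library had the highest level of 12 of the 13 mitochondrial mRNAs, and the part of its erythroid RNA in that was not tested. The tests of the mitochondrial genes were also run without it.

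The mitochondrial mRNAs were among the most abundant RNAs of these cells. By mean TPM over the 6 libraries, mt-Co2 ranked 1, mt-Atp6 ranked 2, mt-Co1 ranked 4 and mt-Atp8 ranked 5 of all genes, while mt-Nd6 ranked 1473. In AAV-GFP the ranges of the 3 most abundant overlapped: 8430 to 8963 TPM for mt-Co2, 8427 to 9676 TPM for mt-Atp6 and 7631 to 8847 TPM for mt-Co1. The level of mt-Atp8 was lower than these in AAV-GFP (7096 to 7434 TPM), followed by mt-Cytb (4125 to 4419 TPM). The ranges of mt-Nd1 (3487 to 3992 TPM), mt-Nd4 (3560 to 3984 TPM) and mt-Co3 (2636 to 5324 TPM) overlapped, as did those of mt-Nd2 (2206 to 2373 TPM) and mt-Nd3 (2113 to 3207 TPM). The sum of mt-Co3 and its nuclear copy Gm28437 was 8511 to 9408 TPM in AAV-GFP. The place of mt-Co3 in this order thus depends on how reads are divided. The range of mt-Nd4l (2830 to 3386 TPM) overlapped that of mt-Nd3, and the wide range of mt-Co3 took in mt-Cytb and mt-Nd4l as well. At the lower end, mt-Nd5 had 968 to 1059 TPM and mt-Nd6 92.7 to 123 TPM, each below the gene before it in every control. The part that capture of polyadenylated RNA plays in the low level of mt-Nd6 was not tested. In bulk RNA, fewer cells of a type and less RNA per cell cannot be told apart.

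**Figure D1:**
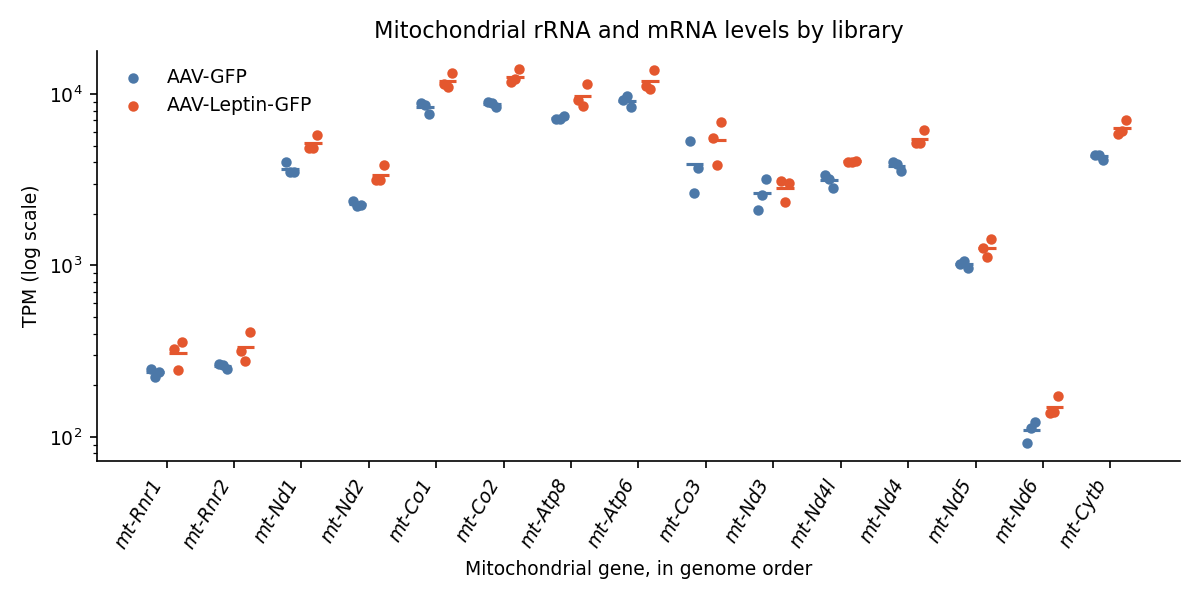
TPM (log axis) of the 2 rRNA and 13 mRNA genes in genome order, with 1 point per library, 3 libraries a group and a bar at the group mean. For 11 of the 13 mRNAs every AAV-Leptin-GFP point lies above every AAV-GFP point; for mt-Co3 and mt-Nd3 the groups overlap.

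Mitochondrial mRNA took a larger share of TPM in every AAV-Leptin-GFP library than in any AAV-GFP library. The share was 6.08%, 5.79% and 5.62% in AAV-GFP replicates 1 to 3 and 7.67%, 7.29% and 9.07% in AAV-Leptin-GFP replicates 1 to 3. The group means were 5.83% ± 0.233 (SD, n = 3) and 8.01% ± 0.937 (SD, n = 3), 1.38 times higher with leptin, with a two-sided exact permutation p = 0.1, the smallest that 3 against 3 can give.

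Gene by gene, 7 of the 13 mRNAs rose and none fell in limma's moderated test on log2(TPM + 1), at a Benjamini-Hochberg adjusted p under 0.05 over 15108 tested genes. The background was 1.54% of all tested genes higher and 0.0662% lower. The 13 log2 fold changes ran from 0.11 to 0.57 with a median of 0.49, beside a median of -0.00016 over all tested genes. Groups did not overlap for 11 of the 13, all higher with leptin, against 13.3% of all tested genes not overlapping in that direction and 11.9% in the other. At an unadjusted p under 0.05, 11 of the 13 were higher and 0 lower, beside 11.3% and 8.19% of all tested genes. Of the 96 genes at a mean of 1000 TPM or more, 7.29% were called higher, and all 7 of these were mitochondrial. Among the 84 nuclear genes at that level, which include 2 of the nuclear copies, 0 were called higher and 1.19% (1 gene) lower. Leaving out AAV-GFP replicate 1 gave 7 calls, and leaving out any other library in turn gave 0, with a smallest adjusted p of 0.116 and 0.126 when control replicates 2 and 3 were left out and of 0.0753, 0.140 and 0.0573 when leptin replicates 1, 2 and 3 were. In these 6 fits 11 or 12 of the 13 had an unadjusted p under 0.05 and a higher level with leptin, and their median log2 fold change was between 0.36 and 0.54. In the 5 fits with 0 calls, the genes called higher over the whole table numbered between 3 and 18. They numbered 409 without AAV-GFP replicate 1 and 233 with all libraries. The share of all tested genes at that unadjusted p was not counted for these 6 fits.

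Complex I passes electrons from NADH to ubiquinone, and 7 of its subunits are mitochondrial. The core membrane subunit mt-Nd2 had 2373, 2206 and 2241 TPM in AAV-GFP and 3156, 3150 and 3839 TPM in AAV-Leptin-GFP. All leptin libraries lay above all controls, and mt-Nd2 had the highest fold change of the 13 mRNAs (log2 fold change 0.57 ± 0.079 SE, adjusted p = 0.0269). The subunit mt-Nd4 had 3984, 3921 and 3560 TPM against 5162, 5182 and 6135 TPM, again with separate groups (0.52 ± 0.076 SE, adjusted p = 0.0301). For mt-Nd1, the subunit next to the ubiquinone site, the values were 3992, 3488 and 3487 TPM against 4820, 4812 and 5791 TPM (0.49 ± 0.085 SE, adjusted p = 0.0448). The small subunit mt-Nd4l, whose RNA also carries mt-Nd4, had 3386, 3184 and 2830 TPM against 4027, 4010 and 4088 TPM. Its leptin values were nearly equal to each other (0.37 ± 0.062 SE, adjusted p = 0.0405). The subunit mt-Nd5 had 1024, 1059 and 968 TPM against 1255, 1112 and 1426 TPM; the groups did not overlap, but the difference missed the threshold (0.31 ± 0.086 SE, adjusted p = 0.114). The same held for mt-Nd6, with 92.7, 113 and 123 TPM against 137, 139 and 174 TPM (0.45 ± 0.13 SE, adjusted p = 0.113). The subunit mt-Nd3 had 2113, 2559 and 3207 TPM against 3115, 2341 and 3019 TPM. Its groups overlapped, AAV-GFP replicate 3 was the highest of all 6 libraries, and the interval of its log2 fold change (0.11, 95% confidence interval -0.27 to 0.50) included 0.

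Complex III has 1 mitochondrial subunit, cytochrome b, which holds b-type haem groups in the membrane. The level of mt-Cytb was 4419, 4408 and 4125 TPM in AAV-GFP and 5854, 6081 and 7014 TPM in AAV-Leptin-GFP. Every leptin library lay above every control (0.55 ± 0.068 SE, adjusted p = 0.0228).

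Complex IV reduces oxygen, and its 3 mitochondrial subunits form the catalytic core. The copper-binding subunit mt-Co2 had 8963, 8873 and 8430 TPM against 11768, 12207 and 13892 TPM. Its adjusted p was the smallest of the members (0.52 ± 0.063 SE, adjusted p = 0.0202). The haem-binding subunit mt-Co1 had 8847, 8625 and 7631 TPM against 11476, 10956 and 13227 TPM, also without overlap (0.50 ± 0.082 SE, adjusted p = 0.0365). The core subunit mt-Co3 varied most, with 5324, 2636 and 3699 TPM against 5522, 3854 and 6826 TPM. Its lowest leptin library lay below the highest control, and its log2 fold change of 0.49 ± 0.28 SE had an adjusted p = 0.392.

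Complex V is the ATP synthase, and its mitochondrial subunits belong to the membrane part through which protons pass. The subunit mt-Atp6, which forms the proton channel, had 9155, 9676 and 8427 TPM against 11181, 10613 and 13834 TPM. The accessory subunit mt-Atp8 had 7096, 7156 and 7434 TPM against 9260, 8483 and 11467 TPM. Neither pair of groups overlapped, and neither passed the threshold (0.38 ± 0.0998 SE, adjusted p = 0.104 for mt-Atp6; 0.42 ± 0.10 SE, adjusted p = 0.0868 for mt-Atp8).

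The spread of mt-Co3 went with the nuclear copy whose first bases are printed above. Gm28437 was listed at 4071, 6773 and 4813 TPM in AAV-GFP and 5317, 7063 and 7159 TPM in AAV-Leptin-GFP, so it held from 43.3% to 72.0% of the summed TPM of the pair. The library with the least mt-Co3 among the controls, replicate 2, had the most Gm28437. The pair's sum was 9395, 9408 and 8511 TPM in AAV-GFP and 10839, 10917 and 13985 TPM in AAV-Leptin-GFP, and these groups did not overlap. The coefficient of variation in AAV-GFP was 34.8% for mt-Co3 alone and 5.65% for the sum, and in AAV-Leptin-GFP 27.6% and 15.1%. Summing members with their copies was chosen after seeing the data.

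The other copies took less. Gm10925, identical to mt-Atp6 over 678 bases, held 3.38% to 14.5% of that pair, and the coefficient of variation in AAV-GFP was 6.90% for mt-Atp6 and 1.95% for the sum (14.5% and 11.9% in AAV-Leptin-GFP). Gm29216, which aligned to mt-Co1 over 483 bases with 1 substitution (A1066T, counted from the 5′ end of mt-Co1), held 5.41% to 9.75%. For mt-Co1 the coefficient of variation was 7.74% for the gene and 7.08% for the sum in AAV-GFP, but the sum varied more in AAV-Leptin-GFP (10.0% and 12.2%). Gm28438 was listed at 1216, 981 and 0 TPM in AAV-GFP and 0, 437 and 516 TPM in AAV-Leptin-GFP. The control with most mt-Nd3, replicate 3, was the one in which this copy was listed at 0. Gm28439, identical to mt-Nd4 over 876 bases, reached 2.81% of its pair at most. Gm10222, identical to mt-Nd4l over 294 bases, was above 0 in AAV-Leptin-GFP replicate 3 alone, at 13.4% of the pair. There too the sum varied more than the gene in AAV-Leptin-GFP (9.51% against 1.01%). Gm28661, identical to mt-Co2 over 681 bases, was listed at 0 in all 6 libraries. Together the copies were 9.51% to 13.1% of the summed TPM of mitochondrial mRNA and copies. The deposited values cannot tell RNA of a copy from RNA of the mitochondrial gene assigned to it. No copy passed limma's test (smallest adjusted p = 0.219 among the 6 of these copies tested, for Gm10925). Of the 10 more diverged copies found, 3 had a mean of 1 TPM or more, and none of these passed the test: Gm13340 (of mt-Co1) at a mean of 5.68 TPM, Gm13341 (of mt-Co2) at 2.31 TPM and Gm50174 (of mt-Atp6) at 1.55 TPM.

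**Figure D2:**
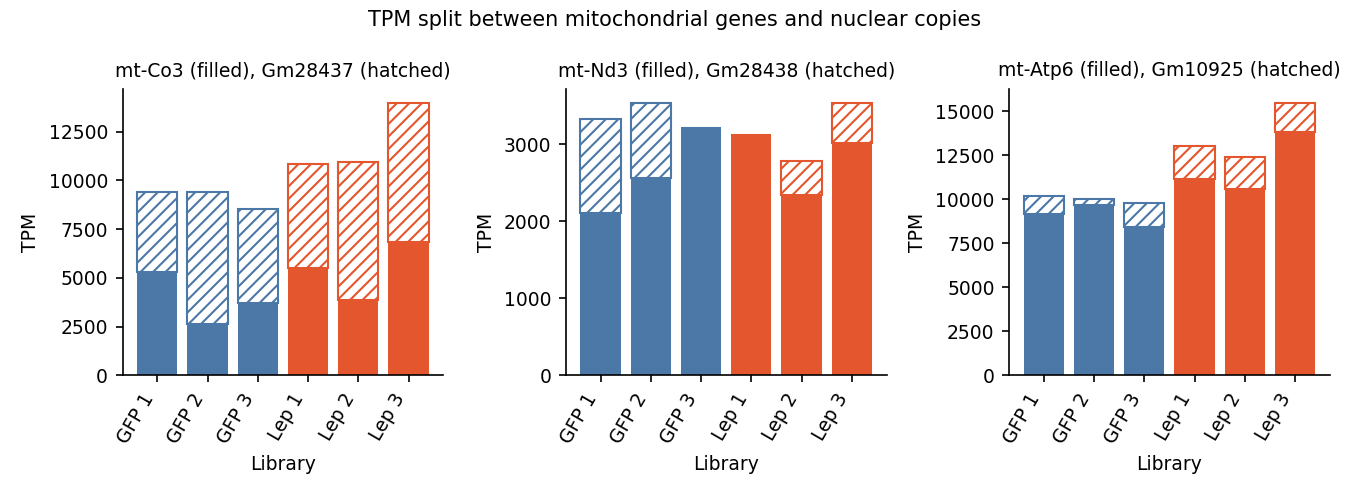
TPM of 3 mitochondrial genes (filled) and of their nuclear copies (hatched, stacked on top) in each library, with GFP 1 to 3 for AAV-GFP and Lep 1 to 3 for AAV-Leptin-GFP. The split between gene and copy changes from library to library, and the stacked sum varies less within AAV-GFP than the gene alone, for mt-Co3 by a coefficient of variation of 5.65% against 34.8%.

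With the copies added, 7 of the 13 mRNAs again rose and none fell, against 1.56% of all 15102 genes tested called higher, but the genes differed. The sum for mt-Atp6 passed the threshold (log2 fold change 0.44, adjusted p = 0.0430) and that for mt-Nd4l no longer did (0.44, adjusted p = 0.0528). The sum for mt-Co1 stayed called (0.49, adjusted p = 0.0493), as did mt-Nd4 (0.53, adjusted p = 0.0259). The sum for mt-Co3 had a log2 fold change of 0.38 with an interval of 0.15 to 0.61 and an adjusted p = 0.0999, where mt-Co3 alone had an interval of -0.17 to 1.16. Of the 13, 12 were above 0. Leaving out single libraries gave 6 calls without AAV-GFP replicate 1 and 0 in each of the other 5 fits. Over the whole table, 420 genes were called higher in the former and between 3 and 18 in the latter, against 235 with all libraries.

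**Figure D3:**
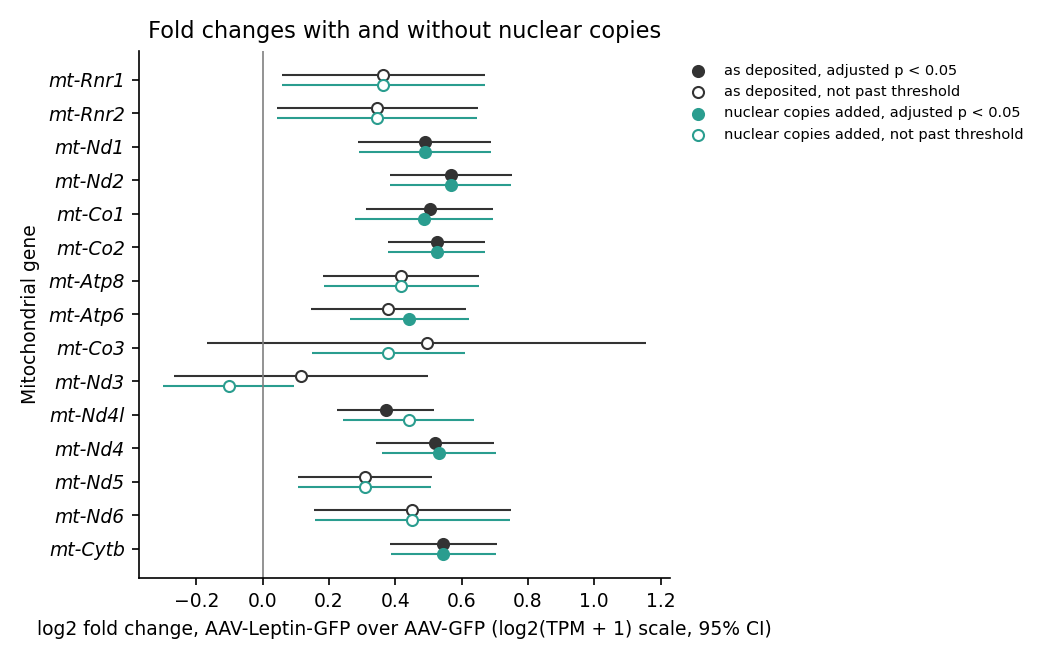
log2 fold changes of AAV-Leptin-GFP over AAV-GFP with 95% confidence intervals, as deposited (black) and with nuclear copies added (green); filled points have a limma adjusted p under 0.05. Adding the copy narrows the interval of mt-Co3 from -0.17 to 1.16 down to 0.15 to 0.61, and moves mt-Nd3 from 0.11 to -0.10.

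With the copies added, mt-Nd3 was the one mRNA of the 13 whose mean was lower with leptin. The pair had 3329, 3540 and 3207 TPM in AAV-GFP and 3115, 2778 and 3535 TPM in AAV-Leptin-GFP, which overlapped. The log2 fold change was -0.10 (95% confidence interval -0.30 to 0.095, adjusted p = 0.556). Against the other 12 mRNAs of the same library, its log2 ratio was -4.28, -4.16 and -4.23 in AAV-GFP and -4.71, -4.85 and -4.80 in AAV-Leptin-GFP. The groups did not overlap, and the difference was -0.57 (two-sided exact permutation p = 0.1, the smallest possible). The gene encodes a small subunit of complex I whose exposed loop is known to move as the enzyme switches between active and inactive states. As deposited, without the copy, this difference was -0.35 with overlapping groups (exact p = 0.2). The ratio was chosen after its values were seen.

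Shares within the mitochondrial mRNA, which do not depend on the total, differed less between the groups for the other genes. As deposited, mt-Nd2 had 3.90% ± 0.0907 of mitochondrial mRNA TPM in AAV-GFP and 4.22% ± 0.104 in AAV-Leptin-GFP (SD, n = 3). The shares of mt-Cytb were 7.41% ± 0.179 and 7.90% ± 0.383, and neither gene's groups overlapped. The share of mt-Nd5 was 1.75% ± 0.0743 and 1.58% ± 0.0560, lower in every leptin library. With copies added, mt-Nd3 had 5.09% ± 0.210 in AAV-GFP and 3.49% ± 0.166 in AAV-Leptin-GFP. In that case mt-Nd2, mt-Co2, mt-Nd4 and mt-Cytb were higher and mt-Nd3 and mt-Nd5 lower in every leptin library. These shares are parts of one total, so the lower share of mt-Nd3 by itself raises the others, and the differences are not independent. Each of these comparisons, 1 of 13 genes, had a two-sided exact permutation p = 0.1, which cannot pass 0.05 before or after adjustment. The ratio of mt-Nd6 to the 12 mRNAs of the other strand gave no separation: its log2 value was -9.06 ± 0.26 in AAV-GFP and -9.06 ± 0.059 in AAV-Leptin-GFP (SD, n = 3; exact p = 1).

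**Figure D4:**
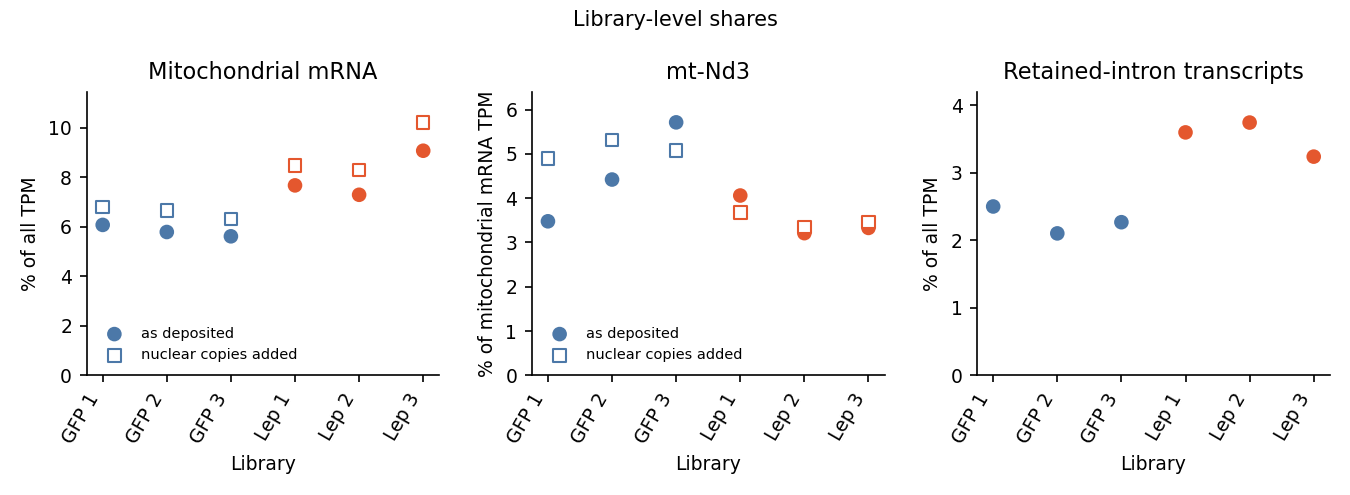
Mitochondrial mRNA as a percent of all TPM (left), mt-Nd3 as a percent of mitochondrial mRNA TPM (middle) and retained-intron transcripts as a percent of all TPM (right) in each library, as deposited (circles) and with nuclear copies added (open squares). The mt-Nd3 groups overlap as deposited and separate at 5.09% and 3.49% (means) with the copy added.

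The rRNAs form the core of the mitochondrial ribosome. The small-subunit mt-Rnr1 had 249, 223 and 240 TPM in AAV-GFP and 327, 244 and 357 TPM in AAV-Leptin-GFP, with AAV-Leptin-GFP replicate 2 inside the range of the controls. The large-subunit mt-Rnr2 had 265, 263 and 249 TPM against 315, 277 and 410 TPM, without overlap. Both were higher at an unadjusted p under 0.05, and neither passed limma's test after adjustment (0.36 ± 0.13 SE, adjusted p = 0.191 for mt-Rnr1; 0.35 ± 0.13 SE, adjusted p = 0.205 for mt-Rnr2). Together they held 0.0497% ± 0.00152 of TPM in AAV-GFP and 0.0643% ± 0.0123 in AAV-Leptin-GFP, far less than the mRNAs in a library made from polyadenylated RNA. All 22 tRNA genes, of 59 to 75 bases, were listed at 0 in every library, so nothing can be said of their RNA. The shortest and the longest show how little sequence such a gene offers.
mt-Ts2, chrM:11613-11671, forward strand: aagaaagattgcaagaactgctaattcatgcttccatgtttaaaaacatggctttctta
mt-Tl1, chrM:2676-2750, forward strand: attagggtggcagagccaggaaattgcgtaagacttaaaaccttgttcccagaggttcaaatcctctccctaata

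The nuclear genes for subunits of the same complexes lay on the other side of 0. Of 74 tested nuclear subunit genes of complexes I, III, IV and V, all 74 log2 fold changes were below 0, with a median of -0.13, while all 13 mitochondrial ones were above 0 as deposited. Lower at an unadjusted p under 0.05 were 41 of the 74, beside 8.19% of all tested genes. After adjustment 1 of the 74 was called lower, beside 0.0662% of all tested genes: the ATP synthase subunit Atp5mpl (-0.20, adjusted p = 0.0393). This call was lost when TPM was rescaled over genes not mitochondrially encoded (-0.16, adjusted p = 0.0602) and when any single library was left out (adjusted p from 0.0552 to 0.184); over all alternatives its adjusted p ran from 0.0354 to 0.184. Those with the smallest p for the other complexes did not pass: Ndufb11 of complex I (-0.18, adjusted p = 0.0790), Uqcr11 of complex III (-0.22, adjusted p = 0.0962) and Cox6a1 of complex IV (-0.18, adjusted p = 0.0792). TPM sums to a fixed total, and the larger mitochondrial share alone lowers every other gene by 0.034 on the log2 scale. With TPM rescaled over genes not mitochondrially encoded, the medians were -0.11, -0.11, -0.10 and -0.08 for complexes I, III, IV and V, and all 74 remained below 0. Below 0 were 65 of 74 with quantile normalization and 71 of 73 over protein-coding transcripts only. The 84 nuclear genes at 1000 TPM or more also had a median below 0, at -0.11. They include some of the subunit genes, such as Cox4i1 and Atp5b, and 2 of the nuclear copies. The sets were not matched for level.

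Within a library, the summed TPM of mitochondrial over nuclear subunit genes was higher in every leptin library for each complex. For complex I this ratio was 1.70 ± 0.0765 in AAV-GFP and 2.49 ± 0.157 in AAV-Leptin-GFP. It was 1.26 ± 0.0650 and 2.03 ± 0.159 for complex III, 2.09 ± 0.244 and 3.26 ± 0.302 for complex IV, and 1.51 ± 0.0608 and 2.18 ± 0.259 for complex V (SD, n = 3; two-sided exact permutation p = 0.1 each, the smallest possible).

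**Figure D5:**
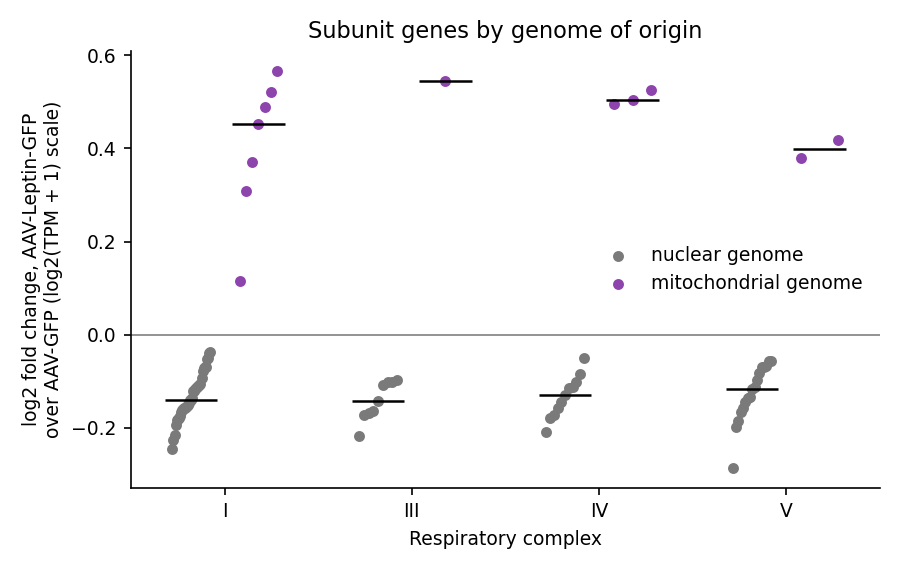
log2 fold change (log2(TPM + 1) scale) of each subunit gene by respiratory complex and genome of origin, 1 point per gene, with a bar at the median. All 74 nuclear points lie below 0 and all 13 mitochondrial points above 0.

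Few nuclear genes that make and maintain mitochondrial RNA were called. Over all lists of nuclear genes of mitochondrial function, respiratory subunits included, 2 of 258 tested genes were called higher and 1 lower (Atp5mpl). The shares over all tested genes were 1.54% higher and 0.0662% lower, so lists this small would hold few calls in any case. Of 11 genes for transcription (the RNA polymerase Polrmt and its factors), 24 for RNA processing and modification and 15 for RNA stability and polyadenylation, none was called in either direction, with medians of -0.05, -0.03 and 0.02. The smallest p in each list belonged to Mterf3, a negative regulator of mitochondrial transcription (0.30, adjusted p = 0.148), Mettl17, a factor of the mitochondrial ribosome (0.81, adjusted p = 0.0776), and the RNA helicase Supv3l1 (0.19, adjusted p = 0.191). Of 16 genes for mitochondrial DNA replication and nucleotide supply, Slc25a36, a carrier of pyrimidine nucleotides, rose (0.41, adjusted p = 0.0203). Of 16 translation factors, Guf1, an elongation factor, rose (0.66, adjusted p = 0.0480). Over protein-coding transcripts only, Slc25a36 had 0.21 (adjusted p = 0.159) and Guf1 -0.09 (adjusted p = 0.788), and neither was called. On the same transcripts Mterf3 had 0.02, Mettl17 0.40 and Supv3l1 -0.02, all below their values over all transcripts. Both calls were also lost when any library other than AAV-GFP replicate 1 was left out. Of 14 biogenesis regulators none was called (median 0.11), with the smallest p for the deacetylase Sirt1 (0.30, adjusted p = 0.236). None of 41 assembly factors was called (median -0.07), with the smallest p for the membrane insertase Oxa1l (0.28, adjusted p = 0.0593). Import and matrix genes (18; Timm44 of the import motor at 0.49, adjusted p = 0.0525, and at -0.08 over protein-coding transcripts only), mitophagy genes (12; the adaptor Sqstm1 at -0.11, adjusted p = 0.139), the mitochondrial unfolded protein response (13; Chchd2 at -0.14, adjusted p = 0.0797) and complex II (4; Sdhb at -0.15, adjusted p = 0.118) held no call either.

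Another class of RNA moved with the groups. Transcripts annotated as retaining an intron took 2.29% ± 0.200 of TPM in AAV-GFP and 3.53% ± 0.260 in AAV-Leptin-GFP (SD, n = 3), without overlap. Of 9 tested RNAs known to stay in the nucleus, 6 were called higher and 0 lower, beside 1.54% and 0.0662% of all tested genes. Those called were Snhg11, Malat1, Mirg, Rian, Miat and Snhg14 (Snhg14 at 1.02, adjusted p = 0.00349). The whole list of nuclear RNAs holds genes picked with results of these libraries known and is no independent evidence of direction. Its sum was 737 to 1566 TPM in AAV-GFP and 2874 to 3638 TPM in AAV-Leptin-GFP. Of the leptin libraries, replicate 2 had the highest retained-intron share and the highest such sum, and replicate 3 the highest mitochondrial mRNA share. Among these libraries, the mitochondrial mRNA share was lowest in replicate 2. Of the controls, replicate 1 was highest in each of these values (2.50%, 1566 TPM and 6.08%). The part of RNA quality or of nuclear RNA in the mitochondrial differences was not tested.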

How the data were processed

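Polyadenylated RNA was sequenced from 6 libraries in 2 groups of 3, with groups taken from the sample titles. The authors deposited TPM for each Ensembl transcript in each library. Build GRCm38 (mm10) and the tools Salmon 1.6.0, DESeq2 1.34.0, Trim Galore 0.6.6 and FastQC 0.11.9 are named per the submitters' processing notes; their annotation release is not stated in these sources. TPM was summed by gene identifier and log2(TPM + 1) was tested with limma 3.58.1 (R 4.3.3, mean-variance trend, two-sided) on genes whose mean reached 1 TPM, with Benjamini-Hochberg adjustment over all of them and a threshold of 0.05. Fold changes of low genes are understated on this scale. Single values per library were compared by exact permutation. The procedure was checked on simulated data with larger fold changes than those of the members, so calls at their size were not checked. Transcript identifiers matched GENCODE M21 for 97.4% of 140789 transcripts. Nuclear copies were found by blastn 2.17.0 (at least 90% identity over 100 bases) among its transcripts, and the 7 copies at 99% or more were added to their genes as an alternative. Salmon divides reads between near-identical transcripts, so single values of such genes are uncertain. Deviations of same-numbered libraries correlated at 0.034, -0.070 and -0.024, so no pairing by replicate number was seen. With 3 libraries a group this cannot show whether they were processed together. Named genes are all members, nuclear copies at 1 TPM or more, and from each list up to 3 called genes or else that with the smallest p. The members and lists were chosen with earlier results of these data known. Alternatives covered the pseudocount, filter, scaling, transcript class, trend, replicate block and each library left out.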

Additional observations from a re-analysis of the deposited data

How the results depend on the processing

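The count of 7 mitochondrial mRNAs called higher held with pseudocounts of 0.1 and 10, a filter at 10 TPM, rescaling over nuclear genes and protein-coding transcripts only. It was 5 with median-of-ratios scaling and 4 with quantile normalization, beside 315 and 253 genes called higher over the whole table. It was 0 with no filter, with no mean-variance trend and with the replicate block. In these 3 fits 4 of 29036, 35 of 15108 and 74 of 15108 tested genes were called higher, in the same order. The fit with the settings given above had 233. The median log2 fold change of the 13 stayed at 0.49 in these 3 fits, and the cause of the fewer calls was not tested. At an unadjusted p under 0.05, the same 3 fits had 11, 11 and 12 mRNAs higher, and the share of all tested genes at that p was not counted for them. Leaving out single libraries gave 0 to 7 as deposited and 0 to 6 with copies added. With quantile normalization mt-Atp6 turned to -0.12, and mt-Co2, mt-Co1 and mt-Atp8 had 0.043, 0.062 and 0.11. That setting gives every library the same set of values. It can therefore show little of a difference in these genes, which rank 2, 1, 4 and 5 of all. The log2 fold change of mt-Nd3 was -0.10 with copies added, by TPM or by length, and ran from -0.032 to 0.27 with single libraries left out as deposited. With copies added it was -0.11, -0.063 and -0.13 when control replicates 1, 2 and 3 were left out, and -0.099, -0.016 and -0.19 when leptin replicates 1, 2 and 3 were. The 2 nuclear genes of mitochondrial function called higher became 1 with pseudocount 10, 4 with the filter at 10 TPM or rescaling, and 0 with no filter, protein-coding transcripts only, no trend or the replicate block; with single libraries left out it was 0 to 3, at 3 without AAV-GFP replicate 1 and 0 in the other 5 fits. The 1 called lower became 0 with no filter, quantile normalization, rescaling, protein-coding transcripts only, no trend, the block or any library left out. Over protein-coding transcripts only, Supv3l1 (-0.017), Guf1 (-0.090) and Timm44 (-0.081) reversed. Within mitochondrial mRNA, 2 genes had separate higher shares and 1 a lower one; these became 1 without mt-Atp8 and mt-Nd4l (higher), 0 with TPM multiplied by length (higher), 4 and 2 with copies added in both ways, and 2 to 5 and 1 to 3 with single libraries left out. The share difference of mt-Co3 (leptin minus GFP, percentage points) turned to -0.00964 without mt-Atp8 and mt-Nd4l, -0.0637 by length and -0.595 or -0.608 with copies added; with single libraries left out it ranged from -1.01 to 1.10, that of mt-Atp8 from -0.69 to 0.094, mt-Nd4l from -0.49 to 0.0035 and mt-Nd6 from -0.020 to 0.013. The mt-Nd6 log2 ratio difference, 0.0017, was -0.00883 without mt-Atp8 and mt-Nd4l, -0.0228 by length, and -0.14 to 0.11 with single libraries left out. Read depth is unknown, and 3 libraries a group limit every comparison.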
